A study of Mus musculus with 29 samples.

Results

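RPC4 occupancy in the regenerating mouse liver was compared between 60 h after partial hepatectomy (TP60) and the time before the operation (TP0). RPC4 is a subunit of RNA polymerase III (Pol III), and its occupancy was measured by ChIP-seq at 646 loci. The comparison rests on 4 of the 29 samples of the series, namely the 2 RPC4 libraries of TP0 and the 2 of TP60, with every locus of the deposited table kept. A locus counted as occupied where it passed the cutoff in 1 or more of these 4 libraries, as 487 of the 646 loci did.

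The TP0 group was liver of C57BL/6 male mice aged 12 to 14 weeks that had not been operated on. The TP60 group was the liver remaining 60 h after removal of most of the organ, from mice of the same strain, sex and age. In both groups a library came from the pooled livers of 3 mice, chromatin was precipitated with the anti-Rpc4 antibody and sequenced beside its own input, and food was given at night only. Libraries made with the same antibody at 36 h and 48 h (TP36 and TP48, 2 each) entered the statistical model and served to choose occupied loci without use of the scores compared. The operations were done early in the light phase, so that livers taken 60 h later came from the dark phase, and time after hepatectomy and time of day cannot be told apart for TP60. TP48 falls at the time of day of TP0. The tissue was a whole liver homogenate, in which fewer cells with Pol III on a locus and less Pol III per cell cannot be told apart.

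Pol III makes the small untranslated RNAs of the cell. The 5S rRNA genes (Rn5S in the mouse table) carry a type 1 promoter inside the gene. The tRNA genes, and the short interspersed elements (SINEs) B1 and B2, which descend from 7SL RNA and from tRNA respectively, carry a type 2 promoter made of an internal A box and B box that recruit TFIIIC. The U6, 7SK, RNase P and RNase MRP RNA genes carry a type 3 promoter upstream of the start site. In the liver, hepatectomy makes resting hepatocytes grow and divide in near synchrony, a state with a high demand for tRNA and ribosomes.

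Mouse tRNA genes occur in families with the same sequence at several places in the genome, and the results below turn on how such copies moved. The gene sequences of 4 families are shown for that reason, read from the NCBI37 (mm9) genome, 5′ to 3′. Capitals mark a match to GGTTCGA, the core of the B box, on the gene's own strand. The initiator tRNA-Met and the tRNA-Gln-CTG genes hold no match and are in lower case throughout.
Initiator Met-CAT, 7 genes: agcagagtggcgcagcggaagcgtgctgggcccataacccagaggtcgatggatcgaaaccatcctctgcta
Ser-AGA, 6 genes: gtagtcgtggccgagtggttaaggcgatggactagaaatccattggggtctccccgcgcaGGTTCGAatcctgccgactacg
Val-CAC, 5 genes: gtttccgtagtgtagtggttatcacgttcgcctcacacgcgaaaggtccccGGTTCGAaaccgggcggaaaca
Gln-CTG, 4 genes: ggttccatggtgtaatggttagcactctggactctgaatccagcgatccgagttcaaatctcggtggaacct

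Among all 433 tRNA genes, 243 (56.1%) held this motif on their own strand and 10 on the other. It was found in 132 of the 199 tRNA genes with higher RPC4 at TP60 (66.3%), in 68 of the 97 occupied tRNA genes that did not pass the test (70.1%), and in 43 of the 137 below all 4 cutoffs (31.4%). None of the 127 SINE loci held it. All copies of these 4 families differed in sequence once extended by the 150 bp on each side that were scored, and the largest share of a score that came from fragments with several matches in the genome was 9.02%.

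The deposited score compares RPC4 ChIP with input fragments as a log2 ratio after a pseudocount, so that a difference of 1 is a doubling on that scale and low levels are compressed. The library cutoffs were 0.84 and 1.33 at TP0 and 0.83 and 1.33 at TP60, for replicate 1 and 2. For the 154 loci under the cutoff of each of the 8 RPC4 libraries, the library medians ran from -0.04 to 0.07 in the 4 libraries compared. At TP0 the median difference between the replicates over occupied loci was 0.01, although the classes shifted in opposite directions, with SINEs lower and Rn5S, Rn4.5S and the other genes higher in replicate 2. At TP60 replicate 1 lay 0.86 below replicate 2. The neuronal RNA gene Bc1, the only locus of the table with a known restriction to another tissue, scored 0.24 and -0.05 at TP0 and 0.27 and 1.16 at TP60, below the cutoff in each library.

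RPC4 occupancy was higher at TP60 at 279 of the 646 loci tested (43.2%) and lower at 0 of them. These 279 passed a limma q value of 0.05 in the model with 1 mean per time point and were occupied. The median change over all 646 loci was 0.95, with 0.60 from replicate 1 and 1.42 from replicate 2. Over the 279 changed loci the median was 1.84, a 3.58-fold higher ratio, and the range was 0.95 to 5.19. Both TP60 libraries were above both TP0 libraries at 446 loci (69%) and below both at 20 (3.1%). The occupied loci with an unadjusted limma p under 0.05 were the same 279, so the q threshold removed none of them. This gives no second check of the direction. Since the occupancy rule uses the scores compared, it was replaced by occupancy at TP36 or TP48, and 277 of 488 loci (56.8%) were then changed. That choice keeps a locus that was low at TP0 only where it was higher at a later time, so counts and medians over it are descriptions.

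The number of calls depended on single libraries and on the adjustment. It was 176 with Benjamini-Hochberg adjustment (27.2%), 160 without TP0 replicate 1, 121 without TP0 replicate 2, 102 without TP60 replicate 2 and 387 without TP60 replicate 1. The direction depended on the reference chosen. Centring each library on the 154 loci below all cutoffs shifted the change by 0.08 and left 0 lower loci. Centring on the 404 loci occupied at TP0 shifted it by 1.63, so that every change below 1.63 turned negative, and 100 loci were then higher and 190 lower. Centring on all 646 loci shifted it by 1.93 and gave 85 higher and 296 lower. Directions below refer to the deposited scores, and the term occupied-centred names the centring on loci occupied at TP0.

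At the threshold, the changed loci closest to it were the tRNA genes n-Tr21, n-Ts26 and n-Tv23, with limma q values of 0.0493, 0.0493 and 0.0495 and changes of 1.05, 1.24 and 1.18. Just outside stood n-Ty7, n-Tp8 and n-Tg28, with changes of 1.19, 1.05 and 1.09 and limma q values of 0.0510, 0.0516 and 0.0520.

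**Figure D1:**
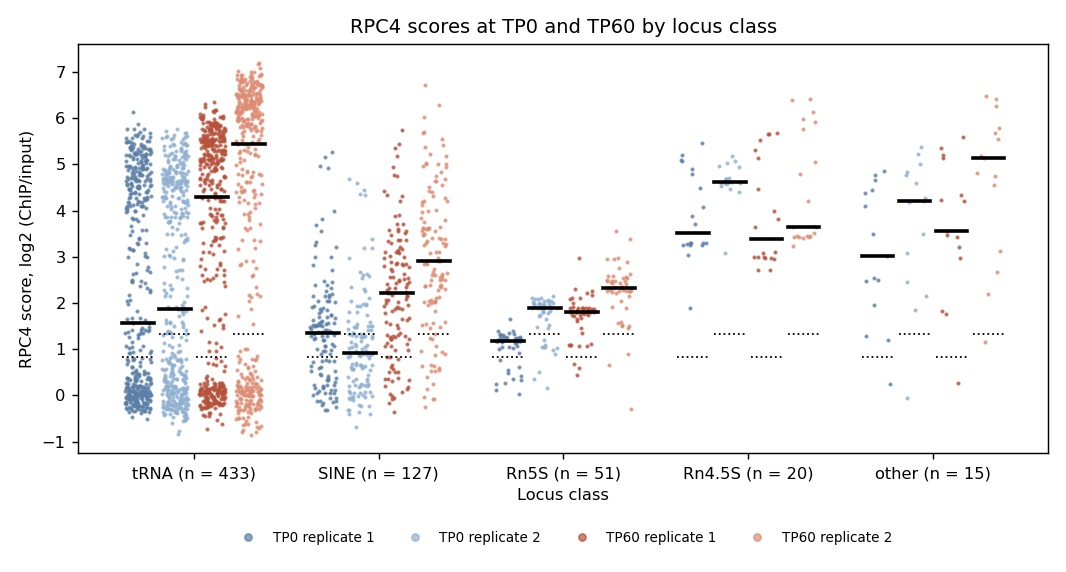
RPC4 scores (y axis, log2 of ChIP over input) of all 646 loci in the 2 TP0 and 2 TP60 libraries by locus class (x axis), with a point per locus, a solid line for the median and a dotted line for the library's cutoff. The tRNA medians sit at 1.57 and 1.88 at TP0 and at 4.30 and 5.44 at TP60, while the 4 Rn4.5S medians lie between 3.38 and 4.61. The median change per tRNA gene is 0.98, less than the distance between these medians.

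The classes moved by different amounts. Library medians of the 433 tRNA genes were 1.57 and 1.88 at TP0 and 4.30 and 5.44 at TP60. The 127 SINEs had medians of 1.35 and 0.91 at TP0 and of 2.21 and 2.91 at TP60. In both classes the 2 TP60 libraries stood above the 2 TP0 libraries. For Rn5S the medians were 1.18 and 1.90 before and 1.81 and 2.33 after, and the groups overlapped. The Rn4.5S copies had 3.51 and 4.61 at TP0 and 3.38 and 3.64 at TP60, and the 15 other genes 3.02 and 4.21 at TP0 and 3.56 and 5.14 at TP60, so that these groups overlapped too. With 2 libraries a group, an exact two-sided permutation test over libraries cannot go below 0.333, so that no difference between these medians can pass it.

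In the test per locus, 199 of 433 tRNA genes (46.0%) and 73 of 127 SINEs (57.5%) rose, beside 43.2% of all loci. In contrast, 4 of 51 Rn5S copies (7.84%), 1 of 20 Rn4.5S copies (5%) and 2 of 15 other genes (13.3%) did. Without TP60 replicate 2 the counts were 84 tRNA genes and 18 SINEs, without TP0 replicate 1 they were 112 and 48, and without TP0 replicate 2 they were 101 and 20. The median change per locus was 0.98 for tRNA genes and 1.33 for SINEs, it was 0.58 and 0.88 without TP60 replicate 2, and it turned to -0.65 and -0.30 on occupied-centred scores. It was 0.54 for Rn5S, 0.81 for the other genes and -0.48 for Rn4.5S, and these were -1.10, -0.82 and -2.11 when occupied-centred. Among tRNA genes above a cutoff at TP36 or TP48 the median was 1.36, against 1.39 for SINEs chosen in the same way.

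The difference between classes was then taken within each library, where a shift common to all scores of the library cancels. Since the pseudocount compresses low levels, a scaling of the library need not shift all loci alike. The SINE median minus the tRNA median was -0.22 and -0.96 at TP0 and -2.09 and -2.53 at TP60. With loci chosen by TP36 or TP48 these values were -2.73 and -3.01 against -2.70 and -2.81, a difference of 0.11. The gap between the classes widened over all members but not over loci occupied at the middle time points. The tRNA library median rose by 3.15 over all members, whereas the median change per tRNA gene was 0.98, below the 1.33 of SINEs. At TP0 the tRNA library median lay between 135 genes below all 8 cutoffs (medians -0.02 and -0.08) and 298 others (4.22 and 4.13). The gap over all members thus does not give the change per gene. The Rn4.5S median minus the tRNA median was 1.94 and 2.73 at TP0 and -0.92 and -1.80 at TP60 over all members. Over loci occupied at TP36 or TP48 it was -0.71 and 0.48 at TP0 and -1.76 and -2.52 at TP60. Under both choices the TP60 libraries lay below the TP0 libraries, although an exact permutation test of 2 against 2 libraries could give no p under 0.333.

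**Figure D2:**
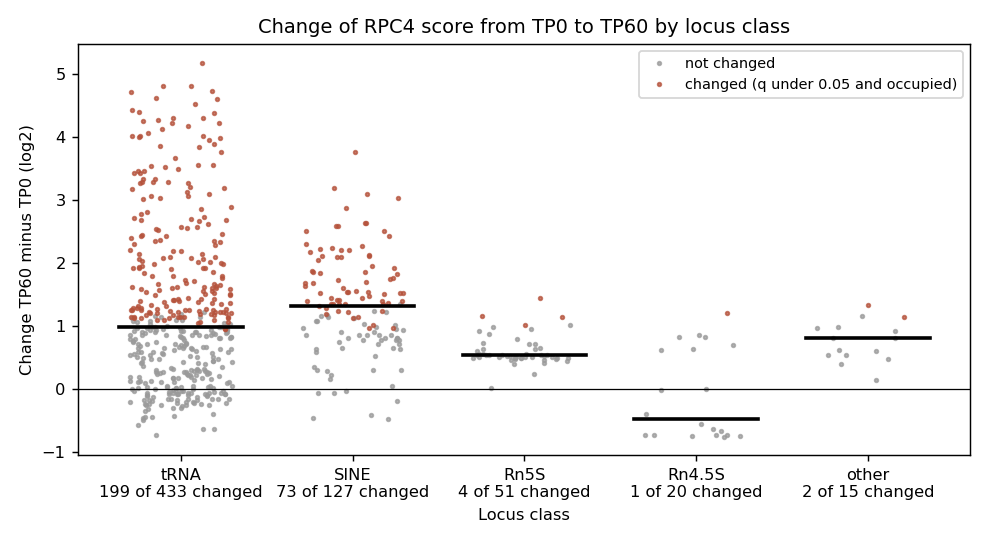
Change of RPC4 score from TP0 to TP60 (y axis, log2) of each of the 646 loci by class (x axis), with changed loci in red and a line at the class median. Red points reach 5.19 in tRNA genes and 3.77 in SINEs, against 1.45 in Rn5S, and all lie above 0 on the deposited scores; on occupied-centred scores the 5 class medians are negative.

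Of the tRNA genes, 45 were below both TP0 cutoffs and above both TP60 cutoffs, as were 20 SINEs and 8 Rn5S copies, 73 loci in all (11.3%). The reverse pattern was found at 0 loci. A single locus, the B2 copy B2_Mm2_B2_SINE+ 19 38227174 in an intron of Pde6c, was occupied at TP0 only, with 1.53 and 0.97 at TP0 and 0.35 and 1.33 at TP60.

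The tRNA gene with the largest rise was n-Tr23 (chr13:22009031-22009116), a tRNA-Arg gene with an intron that lies outside protein-coding genes. It is printed because the results turn on it, with the B-box match in capitals.
n-Tr23: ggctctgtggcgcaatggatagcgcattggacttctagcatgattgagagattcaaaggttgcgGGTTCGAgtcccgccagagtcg

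It scored 0.38 and 0.44 at TP0, under both cutoffs, and 5.04 and 6.15 at TP60. These TP60 scores lay near the medians of 5.14 and 6.16 of the tRNA genes occupied at TP36 or TP48. The change was 5.19 (SE 0.56), a 36.4-fold higher ratio, with a limma q of 0.000187, a value it shared with the other loci at the top of the list. The largest moderated t was that of the tRNA-Ser gene n-Ts10 (chr13:22028963-22029044), which had 2.23 and 1.88 at TP0 and 6.08 and 6.38 at TP60, a change of 4.17 (SE 0.44). The tRNA-Lys gene n-Tk23 went from 0.36 and 0.47 to 4.56 and 5.93. The 2 groups did not overlap at any of these genes.

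Further genes among the 10 with the largest t were the tRNA-Ser gene n-Ts25 (0.45 and 1.36 against 5.10 and 5.93), the tRNA-Val gene n-Tv19 (0.18 and 1.10 against 5.11 and 5.81) and the elongator tRNA-Met gene n-Tm2 (0.11 and -0.29 against 3.44 and 4.43). The tRNA-Gln gene n-Tq8 changed by 4.22, and the tRNA-Ala genes n-Ta10 and n-Ta11 by 4.63 and 4.44. All of these lie on chromosome 13. The exception was n-Tv18, a tRNA-Val gene of chromosome 3 (chr3:96136663-96136735), with 0.81 and 0.80 at TP0 and 4.35 and 5.80 at TP60. Of the loci without occupancy at TP0, the 5 with the highest TP60 means were n-Tr23, n-Tv19, n-Td11, n-Tk23 and n-Tv2, all on chromosome 13 and with TP60 means from 5.19 to 5.60. The tRNA-Leu gene n-Tl11 and the tRNA-Tyr gene n-Ty5, whose precursor RNAs the study assayed together with that of n-Tr23, changed by 4.30 (SE 0.57) and 3.85 (SE 0.56).

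At the other end, the 5 tRNA genes with the highest TP0 means (n-Tl16, n-Tn7, n-Tg26, n-Th5 and n-Tl15, 5.60 to 5.67) had changes of only 0.48 to 0.88, and none passed the test. For n-Tl16 the TP0 scores were 6.13 and 5.22 and the TP60 scores 5.83 and 6.54, so the groups overlapped. The most negative values of occupied tRNA genes were -0.22 for the tRNA-Trp gene n-Tw2 and -0.15 for the tRNA-His gene n-Th8, with limma q values of 0.341 and 0.376.

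**Figure D3:**
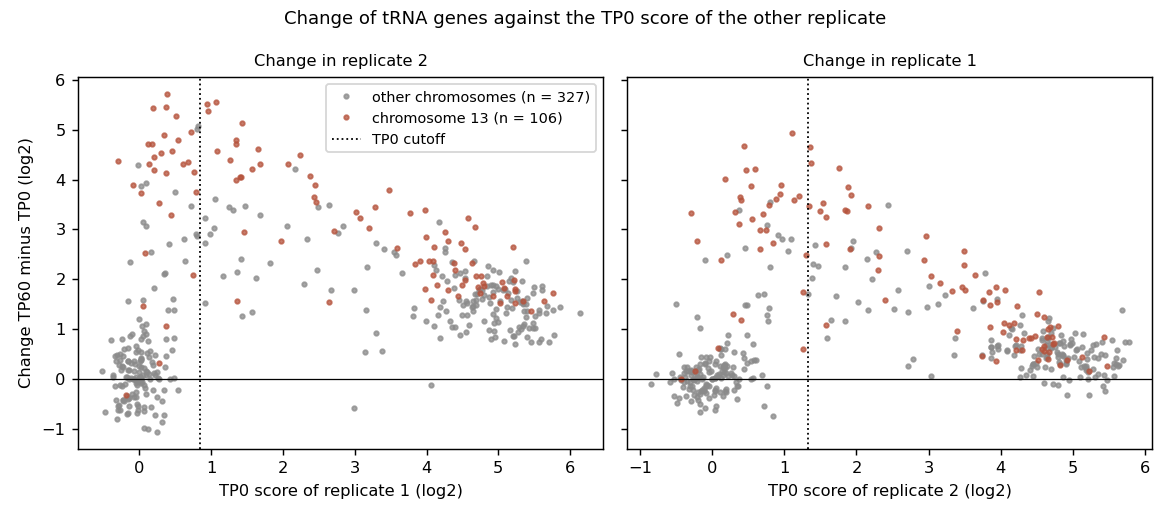
Change of RPC4 score from TP0 to TP60 (y axis, log2) against the TP0 score of the other replicate (x axis, log2) for all 433 tRNA genes, a point per gene, with chromosome 13 in red and the TP0 cutoff dotted. Right of the cutoff the change falls with the TP0 score, from medians of 3.46 and 2.70 for scores from 1 to 2 to 1.50 and 0.38 at 5 and over, in replicate 2 and 1, while left of it many genes lie near 0.

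The change was set against the TP0 level with level and change from different replicates, over the tRNA genes above the cutoff in the TP0 library that gave the level, a choice made after seeing the data. For the 28 genes with a replicate 1 score from 1 to 2 at TP0 the median change in replicate 2 was 3.46, and it was 1.78 for the 93 genes from 4 to 5 and 1.50 for the 71 genes at 5 or more. With the replicates exchanged, the medians were 2.70 (25 genes), 0.65 (106 genes) and 0.38 (50 genes). Among genes occupied at TP0, those with lower scores thus had the larger changes. The interquartile range of the 243 genes above the replicate 1 cutoff was 1.46 at TP0 and 0.66 at TP60 in replicate 2, and that of the 237 genes above the replicate 2 cutoff was 1.65 and 0.76 in replicate 1. When the full set of 433 genes was taken, the pattern was otherwise, since many genes under 1 at TP0 stayed below the cutoffs. There the 196 and 187 genes under 1 had median changes of 0.34 and 0.15, and the interquartile range was wider at TP60 (6.05 and 5.30) than at TP0 (4.45 and 4.60), in replicate 2 and 1. The part of the pseudocount in these ranges was not tested.

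Chromosome 13 was singled out after its values had been seen, so its figures are a description with no test. It carries 106 of the 433 tRNA genes, and 105 of them lie within chr13:21252654-23622288, a stretch that also holds 23 genes of the Hist1 histone cluster. Of the 106 genes, 94 rose (88.7%), against 105 of the 327 on other chromosomes (32.1%). Of the occupied genes alone these were 94 of 104 (90.4%) against 105 of 192 (54.7%), since most unoccupied tRNA genes lie on other chromosomes. Library medians of the chromosome 13 genes were 2.55 and 2.95 at TP0 and 5.11 and 6.22 at TP60. For the other chromosomes they were 0.99 and 1.38 at TP0 and 3.25 and 4.29 at TP60. The median change per gene was 2.36 against 0.70, and on occupied-centred scores 0.73 against -0.93. With genes chosen by TP36 or TP48 it was 2.40 (104 genes) against 1.14 (194 genes).

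Genes of like TP0 level were compared next, for those above the TP0 cutoff. With replicate 1 scores from 1 to 2 at TP0, the median change in replicate 2 was 4.30 in 15 chromosome 13 genes and 2.42 in 13 others, and for scores from 4 to 5 it was 2.09 in 26 genes and 1.57 in 67 genes. With the replicates exchanged the medians were 3.44 against 2.26 from 1 to 2 and 0.83 against 0.56 from 4 to 5. At 5 and over they were 1.72 against 1.40, and with the replicates exchanged 0.35 in 4 genes against 0.38 in 46, so that the contrast was not seen there. As a share of the summed linear ratio over all tRNA genes, chromosome 13 held 23.2% and 22.01% at TP0 and 34.7% and 37.5% at TP60. In these sums the TP60 libraries exceeded both TP0 libraries by over 10 percentage points. Without TP60 replicate 2, 55 chromosome 13 genes and 29 others were changed, without TP0 replicate 1 they were 65 and 47, without TP0 replicate 2 they were 60 and 41, and without TP60 replicate 1 they were 104 and 167. On occupied-centred scores 55 and 30 rose.

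There were 42 clusters of 3 or more tRNA genes with under 5 kb to the next. The cluster with the highest median change held 3 genes on chromosome 13 (chr13:23503946-23505189; n-Tv10, n-Ta7 and n-Tv5), with cluster medians of 0.19 and 0.32 at TP0 and of 4.05 and 5.62 at TP60. A longer cluster (chr13:21998980-22032864) held 15 genes, among them n-Tr23, n-Tk23, n-Ts10, n-Ts25, n-Tq8 and n-Tm2. All 15 rose, by 1.60 to 5.19. The lowest cluster median was -0.24 and belonged to 3 tRNA-Cys genes on chromosome 6 (chr6:48155067-48159908), none of them occupied.

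**Figure D4:**
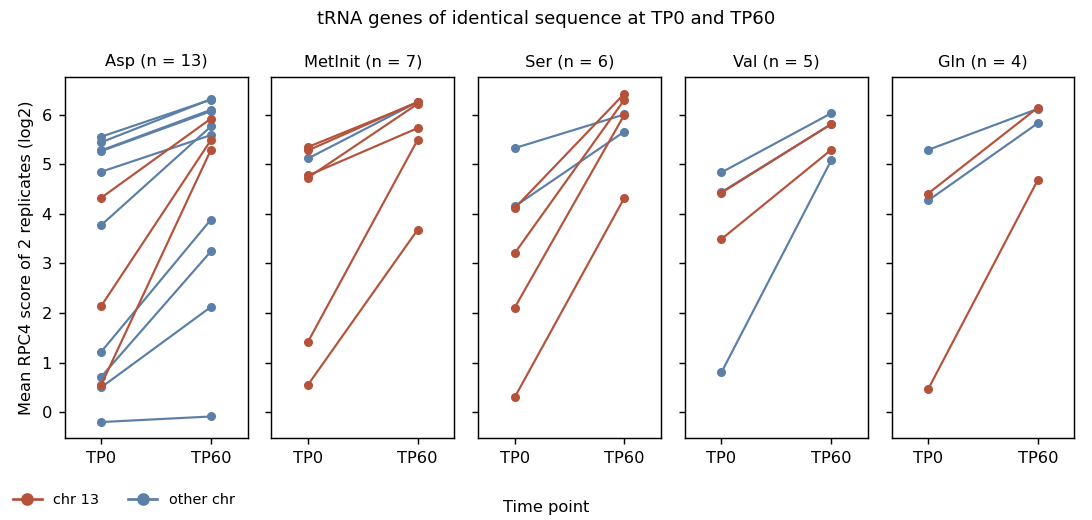
Mean RPC4 score of 2 replicates (y axis, log2) at TP0 and TP60 (x axis) for tRNA genes of identical sequence, a line per gene and a panel per family, with chromosome 13 in red. In the Val family the means span 4.03 at TP0 and 0.95 at TP60, whereas the 13 Asp genes span 5.76 and 6.40.

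The 433 tRNA genes have 249 distinct sequences, and 33 sequences occur in 3 or more genes. In 29 of these families at least 3 genes were occupied at TP36 or TP48. The change varied within them: its range was over 2 in 12 families and the median range was 1.63. In 22 of the 29, some copies were changed and others were not. Of all occupied tRNA genes 67.2% were changed, so mixed calls are likely in any set of several genes. A difference between copies was not tested. Families of Asp-GTC, Glu-CTC, Asn-GTT, His-GTG, Gly-TCC, Leu-CAG and Gly-GCC held copies with over 50% of a score from fragments with several matches. The range of the TP60 means was smaller than that of the TP0 means in 24 of the 29 families, and in 26 of all 33.

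Among the 7 initiator tRNA-Met genes printed above, n-Tm5 scored 1.34 and 1.50 at TP0 and 4.71 and 6.29 at TP60. For n-Tm7, on the same chromosome, the scores were 5.23 and 5.47 and then 5.49 and 7.001. The former rose by 4.08, while the latter, at 0.90, did not pass the test, so that genes of the same sequence differed in their call. Of the 7, 3 passed the test (n-Tm5, n-Tm9 and n-Tm10), all on chromosome 13, which holds 6 of them. In the Ser-AGA family n-Ts6 went from 0.20 and 0.40 to 3.80 and 4.85, and n-Ts4 on chromosome 11 from 5.21 and 5.44 to 5.70 and 6.31. The Val-CAC copy with the largest rise was n-Tv18 of chromosome 3, described above, and the other 4 changed by 1.19 to 1.80. In the Gln-CTG family n-Tq8 rose by 4.22 and n-Tq9 of chromosome 9 had 5.38 and 5.20 at TP0 and 5.78 and 6.45 at TP60, a change of 0.83. In 3 of the 4 families the copy with the lowest TP0 mean had the largest change, the exception being initiator tRNA-Met, where n-Tm10 started lowest and changed by 3.13. Since the same TP0 scores enter the change, a low TP0 mean by itself makes the change larger. These families were also chosen after their values were seen, so this order is a description only.

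The 13 Asp-GTC genes ranged from 0.11 to 4.74, and 7 rose. Up to 100% of the score of one of them (n-Td6) came from fragments with several matches, so the copies on chromosome 1 cannot be fully separated. Of 17 families with genes both on chromosome 13 and elsewhere, the median change was higher on chromosome 13 in 14. Many of the 17 had a single gene there. The difference was small in Glu-CTC (1.14 against 1.04) and large in Asp-GTC (3.35 against 0.84). Chromosome 13 was singled out after its values were seen, and copies were not matched for TP0 level, so this tally is a description. The 29 genes of the largest family, tRNA-Cys, were all below the cutoff, and their changes lay between -0.34 and 0.63.

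**Figure D5:**
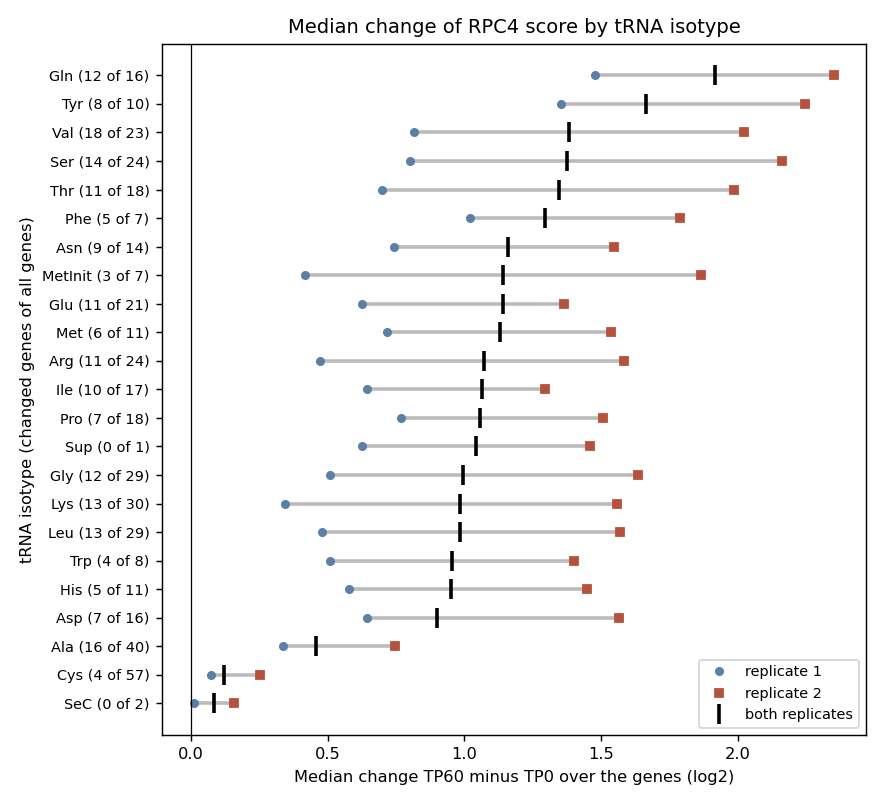
Median change of RPC4 score from TP0 to TP60 (x axis, log2) over the genes of each tRNA isotype (y axis, with changed of all genes), for each replicate and for both. Gln (1.92) and Tyr (1.66) are at the top and Ala (0.46), Cys (0.12) and SeC (0.09) at the bottom, and on occupied-centred scores all medians but those of Gln and Tyr are negative.

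All 23 isotype labels of the table had a positive median change, and on occupied-centred scores only Gln (0.29) and Tyr (0.03) kept one. The counts below stand beside 46.0% of all tRNA genes and 43.2% of all loci that rose. The highest median was that of tRNA-Gln (1.92), where 12 of 16 genes rose, followed by tRNA-Tyr (1.66; 8 of 10), Val (1.38; 18 of 23), Ser (1.38; 14 of 24), Thr (1.35; 11 of 18) and Phe (1.29; 5 of 7). In this order, the medians of their chromosome 13 genes were 1.92, 2.23, 4.06, 2.72, 2.36 and 1.72. Those of their genes on other chromosomes were 1.56, 1.23, 1.18, 0.72, 0.98 and 1.29. Every occupied tRNA-Val gene rose (18 of 18), beside 199 of 296 occupied tRNA genes (67.2%). Of these 18 genes, 10 lie on chromosome 13, where 90.4% of the occupied tRNA genes rose. From Asn (1.16) to Asp (0.90) the medians of 14 isotypes lay close together, and the 2 replicates of each differed by more than these isotypes did. The lowest medians among isotypes with more than 2 genes were Cys (0.12; 4 of 57) and Ala (0.46; 16 of 40).

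Those low medians rest on genes below the cutoff in all libraries. Only 7 tRNA-Cys and 19 tRNA-Ala genes were occupied, of which 4 and 16 rose, beside 67.2% of all occupied tRNA genes. Of the 16 tRNA-Ala genes, 12 lie on chromosome 13. Over genes occupied at TP36 or TP48 the medians were 1.32 for Cys and 1.38 for Ala, near the 1.36 of all tRNA genes. Of the 49 tRNA-Cys genes on chromosome 6, n-Tc57 was the only occupied one, with 5.39 and 4.51 at TP0 and 6.00 and 6.89 at TP60 (change 1.49, limma q 0.0227). The 135 tRNA genes below all 8 cutoffs had a median change of 0.01.

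Among anticodons with 3 or more genes, Gln-CTG had the highest median change (3.33; 9 of 10 rose), followed by Val-AAC (2.85; 7 of 8) and Ser-AGA (2.31; 6 of 9). These 3 also stayed positive on occupied-centred scores (1.70, 1.22 and 0.68). Their order depended on the genes taken. Over genes occupied at TP36 or TP48 the medians were 3.33 for Gln-CTG (10 genes), 4.13 for Val-AAC (7 genes) and 3.10 for Ser-AGA (7 genes). The rise of Gln-CTG was not limited to chromosome 13, where its 4 genes had a median of 3.57, since the 4 genes on chromosome 3 had 3.35. Its single genes on chromosomes 11 and 9 changed by 1.56 and 0.83. The 5 Val-AAC genes on chromosome 13 had a median of 4.26. Single Val-AAC genes on chromosomes 11, 3 and 4 changed by 1.23, 1.28 and -0.02. The 5 Ser-AGA genes on chromosome 13 had a median of 3.89, and those elsewhere changed by -0.18 to 1.51. The lowest median was that of Ala-CGC (-0.06; 3 of 10 rose), whose replicates gave 0.10 and -0.09. Only 3 of its genes were occupied, and all 3 rose, with a median of 1.43. The 24 tRNA genes with an intron had a median change of 1.23 (16 rose) and the 409 without one 0.96 (183 rose). Over genes occupied at TP36 or TP48 these medians were 1.34 (22 genes) and 1.36 (276 genes), so the contrast was not seen there.

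Occupancy was further expressed as each isotype's share of the summed linear ratio over all tRNA genes. This measure does not change with a shift common to all scores of a library, but the shares of all isotypes sum to 100%. Given the pseudocount, a scaling of the library need not leave it unchanged. For tRNA-Ser the share was 5.94% and 5.99% at TP0 and 8.30% and 7.56% at TP60. The tRNA-Val share was 4.34% and 4.42% at TP0 and 5.93% and 6.50% at TP60. For tRNA-Gln it was 3.08% and 3.07% and then 4.31% and 4.26%. Ala was the fourth of the 23 isotypes whose TP60 shares were both above the TP0 shares (17.4%). The shares of 10 (43.5%) were lower at TP60 in both libraries, with the largest decrease for tRNA-Gly, from 8.30% and 7.11% to 6.73% and 6.38%. The tRNA-Cys share was 3.78% and 3.51% before and 2.90% and 2.79% after. For the remaining 9 the libraries overlapped.

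The deposited table sorts loci by their surroundings. Of 117 tRNA genes far from both other Pol III loci and protein-coding (Pol II) genes, 55 rose (47.0%, beside 46.0% of all tRNA genes). Their median change was 0.98 over all 117 and 1.88 over those occupied at TP36 or TP48. For 116 isolated genes near a Pol II gene the count was 38 (32.8%), and these medians were 0.65 and 1.23. The 200 tRNA genes with another Pol III locus nearby had 106 changed (53%) and medians of 1.15 and 1.29. The far group thus had the highest median only over genes chosen by TP36 or TP48.

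Among SINEs, of which 57.5% rose beside 43.2% of all loci, the share of most families lay near that of the class. Of 67 B2 copies, 41 rose (61.2%), with a median change of 1.45 over all 67. Of 29 B1 copies, 15 did (51.7%), with a median of 1.23. For B3, a relative of B2, the figures were 5 of 10 and 1.18, for B4 1 of 5 (20%) and 0.81, and for loci named after more than 1 element 9 of 14 and 1.23. Without TP60 replicate 2 the B2 and B1 counts were 10 and 3, without TP0 replicate 2 they were 11 and 4, and B1 gave 7 without TP0 replicate 1 and 8 without 1 of the TP48 replicates. B3 gave 3 without TP0 replicate 2 or TP60 replicate 2. The B4 call was lost with Benjamini-Hochberg adjustment and without TP0 replicate 1, TP0 replicate 2, 1 of the TP48 replicates or TP60 replicate 2. The medians of the 5 groups were -0.18, -0.40, -0.45, -0.82 and -0.40 on occupied-centred scores. Within a family the medians came close to each other, with 1.53 for B2_Mm2 (23 of 36), 1.45 for B2_Mm1t (9 of 15), 1.36 for B2_Mm1a (9 of 16) and 1.29 for B1_Mus1 (9 of 14). Introns of protein-coding genes held 56 of the SINE loci (34 rose, median 1.35), and 70 lay outside such genes (38 rose, median 1.23).

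Among SINEs the largest moderated t was that of a B2_Mm2 copy in an intron of Gm9999 (chr7:54241133-54241232). It is printed from the minus strand because it is the SINE with the strongest evidence of a change, and it holds no match to the motif above.
B2_Mm2, chr7:54241133-54241232: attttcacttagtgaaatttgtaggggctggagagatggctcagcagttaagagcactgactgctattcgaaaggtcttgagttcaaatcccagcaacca

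The B2_Mm2 copy scored 1.28 and -0.09 at TP0 and 3.71 and 5.01 at TP60, a change of 3.77 (SE 0.69) with a limma q of 0.00113. The groups did not overlap, and the change stayed positive on occupied-centred scores. A second B2_Mm2 copy, in an intron of Gm20388 (chr8:126149708-126149807), had 0.63 and 1.08 before and 3.35 and 4.75 after. The B3 copies at chr17:30794465-30794672, in an intron of Dnahc8, and at chr5:135372305-135372576, outside protein-coding genes, changed by 2.64 and 2.58.

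The SINE loci with the highest TP60 means were well above the cutoff at TP0 too. First among them was the MIR element in an intron of Polr3e (chr7:128062206-128062333), a gene that encodes a Pol III subunit. It scored 5.28 and 4.69 at TP0 and 5.75 and 6.71 at TP60, a change of 1.25 with a limma q of 0.0415. A B3 copy in an intron of Dnajc12 (chr10:62866100-62866281) had 3.99 and 4.44 at TP0 and 4.94 and 6.29 at TP60, and it changed by 1.40 with a limma q of 0.0388. Both changes became negative on occupied-centred scores. The 3 B4A copies on chromosome 6, which lie beside Rn4.5S genes, had changes of 0.53 to 1.04 and did not pass the test. Of the 7 SINE loci with a negative change, the lowest was the B1 copy B1_Mus1_Alu_SINE+ 15 41621390, with 1.38 and 1.80 at TP0 and 0.98 and 1.25 at TP60 (change -0.47, limma q 0.19).

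The 5S rRNA genes, whose product is part of the large ribosomal subunit, had fewer changed members than the tRNA genes and SINEs. The deposited table holds 51 loci, and 50 of them had over 50% of the score from fragments with several matches, so that neighbouring copies share their signal. The median change was 0.54, with 0.64 from replicate 1 and 0.44 from replicate 2. Both TP60 libraries were above both TP0 libraries at 19 of 51 (37.3%), beside 69% of all loci. The copy with the largest change (chr8:126106747-126106868, named as 5S-like) had 1.66 and 1.99 at TP0 and 2.98 and 3.57 at TP60, a change of 1.45 with a limma q of 0.0114. The other 3 changed copies lie in the same array and rose by 1.02 to 1.16. On occupied-centred scores the changes of all 4 were negative, and without TP0 replicate 1, TP0 replicate 2 or TP60 replicate 2 no copy was called, against 10 without TP60 replicate 1.

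The Rn4.5S genes encode a small rodent RNA and form 2 arrays on chromosome 6, which were set apart after their values had been seen. The first (14 copies, chr6:47600760-47713356) had no changed copy and a median change of -0.69, with 12 copies lower at TP60 and 12 with over 50% of the score from fragments with several matches. A copy near its median, at chr6:47604999-47605093, had 3.28 and 4.61 at TP0 and 2.99 and 3.44 at TP60, and the limma q was 0.157. In the second array (6 copies, chr6:128710725-128793400) both TP60 libraries exceeded both TP0 libraries at 6 of 6 copies, beside 69% of all loci, and the median change was 0.83, which was -0.80 on occupied-centred scores. The copy at chr6:128753032-128753126 passed the test, with 5.08 and 4.60 at TP0 and 5.67 and 6.42 at TP60 (change 1.21, limma q 0.0321). The median over all 20 copies was -0.48, but it was 0.09 without TP0 replicate 2 and 0.76 when loci with many such fragments were left out.

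Of the 15 other genes, Rny1 and Rpph1 rose. Rny1, the gene of a Y RNA, had 2.50 and 3.08 at TP0 and 3.44 and 4.81 at TP60 (change 1.33, limma q 0.0326). Rpph1, the RNA component of RNase P, which trims the 5′ end of precursor tRNAs, had 1.97 and 1.86 before and 2.97 and 3.13 after (change 1.14, limma q 0.0287). Both became negative on occupied-centred scores, neither passed with Benjamini-Hochberg adjustment, and 0 of the 15 passed without TP0 replicate 1, TP0 replicate 2 or TP60 replicate 2. The remaining genes had positive changes that did not pass the test.

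Among these were the vault RNA gene Vaultrc5 (1.00), the 7SL genes of the signal recognition particle (0.97 and 0.54), Rnu6atac of the minor spliceosome (0.92), Rmrp of RNase MRP (0.81), Rn7sk, which holds the elongation factor P-TEFb inactive (0.61), and Rny3 (0.49). The 5 copies of Rnu6, the spliceosomal U6 RNA, ranged from 0.15 to 1.16. The highest of them (chr10:79371940-79372046) stood just outside the threshold, with 2.48 and 3.50 at TP0, 3.56 and 4.74 at TP60 and a limma q of 0.053. At Rn7sk the groups overlapped, with 4.11 and 4.59 at TP0 and 4.23 and 5.67 at TP60.

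TP60 was last set against the other times after the operation in the same limma model. Against TP36, 0 of 646 loci passed a q of 0.05 and 7 (1.08%) an unadjusted p of 0.05, and the median difference over occupied loci was 0.43. Against TP48, which was taken at the time of day of TP0, 0 passed a q of 0.05 and 15 (2.32%) an unadjusted p of 0.05, with a median of 0.09. Benjamini-Hochberg adjustment also gave 0 in both. Over occupied loci TP36 replicate 1 lay 0.91 above replicate 2, whereas TP60 replicate 1 lay 0.86 below it. With 2 libraries a time point and such gaps, these counts of 0 do not show that the times were alike.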

How the data were processed

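RPC4 ChIP-seq of mouse liver was analysed at 646 loci, in 2 libraries for each of TP0, TP36, TP48 and TP60, each library a pool of liver from 3 mice. The values deposited by the authors were log2 ratios of ChIP over input fragments in each locus extended by 150 bp on each side, with a pseudocount of 16 and library totals brought to the median of the samples. The authors had mapped paired reads to NCBI37 (mm9) with ELAND and fetchGWI, which kept up to 500 matches for a read. A second deposited column per library gave the percent of a score that came from fragments with several matches. A cutoff for each library was read from the header. Since only scores were used, the depth is unknown and no counting interval is given.

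Libraries were matched to samples by time point and replicate, Rep1 being taken as Series 1. The scores were fitted with limma 3.58.1 in R 4.3.3 with a mean for each time point. Contrasts were adjusted over all 646 loci with Storey q values (cubic spline, df 3, for lambda between 0.05 and 0.95). A locus was changed when q was under 0.05 and it was occupied. P-values measure the spread between libraries of a time point, each a pool of animals, pooled over the time points and moderated across loci. The fit was tested on simulated data with noise drawn separately for each locus. At a q under 0.05 it recovered 34.6% of changes of 1 and 82.9% of changes of 2, and called 1.97% of unchanged loci. Shifts common to all loci of a library were not simulated, so these rates do not cover them. Summed ratios were taken after removing the logarithm from the scores.

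Named loci were 10 changed loci by largest moderated t, the 5 changed SINEs with the largest t and the 5 SINEs with the highest TP60 mean. Also named were every gene of the other class, the changed Rn5S and Rn4.5S copies, the 5 most negative occupied loci, the 5 newly occupied loci and the 5 tRNA genes with the highest TP0 means, and the tRNA genes whose precursors the study assayed. The 5 most negative occupied loci were all Rn4.5S copies of the first array, described through 1 of them. Loci in families of identical sequence, on chromosome 13 and beyond these rules were chosen after their values were seen. One SINE copy that these rules named is not reported here. Members and lists were chosen with earlier results of these data known. Sequences and gene positions were read from the NCBIM37 genome and its GENCODE annotation. Alternatives were other adjustments, a replicate block, fewer libraries, centred scores, other occupancy rules, removal of loci with many multiple matches and leaving out each library. Sham-operated livers were not analysed here.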

Additional observations from a re-analysis of the deposited data

How the results depend on the processing

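The count of 279 higher loci kept its size within 1.5 times under 10 other settings, and leaving out 1 library at a time gave 102 to 387. It was 176 with Benjamini-Hochberg adjustment, 85 centred on all loci and 100 occupied-centred, and the lower count of 0 became 296 and 190. Under Benjamini-Hochberg adjustment the counts were 127 tRNA genes, 48 SINEs, 1 Rn5S copy, 0 Rn4.5S copies and 0 other genes. Centred on all loci they were 74, 11, 0, 0 and 0, and occupied-centred 85, 15, 0, 0 and 0. Centred on loci below all cutoffs, Rn5S gave 8 and the other genes 5. Without 1 library the ranges were 84 to 271 for tRNA genes, 18 to 92 for SINEs, 0 to 10 for Rn5S, 0 to 4 for Rn4.5S and 0 to 10 for the other genes.

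Medians centred on all loci and occupied-centred were -0.98 and -0.68 over all loci, -0.95 and -0.65 for tRNA genes, -0.61 and -0.30 for SINEs, -1.40 and -1.10 for Rn5S, -2.41 and -2.11 for Rn4.5S and -1.12 and -0.82 for the other genes. Leaving out loci with many multiple matches gave 0.013 for Rn5S, where 1 locus was left, and 0.76 for Rn4.5S. Without 1 library the median was 0.58 to 1.45 for tRNA genes, 0.88 to 1.71 for SINEs, 0.16 to 0.91 for Rn5S and 0.25 to 1.30 for the other genes. The class difference to tRNA genes over loci occupied at TP36 or TP48 was 0.11 for SINEs, -0.94 for Rn5S, -2.03 for Rn4.5S and -0.70 for the other genes, against -1.71, -2.62, -3.70 and -2.41 over all members, an alternative chosen after seeing the data. Pooling all times after hepatectomy gave -1.96 for the other genes. Without 1 library it was -2.09 to -1.34 for SINEs and -2.85 to -1.97 for the other genes. The change of tRNA genes under 1 at TP0 minus that at 5 and over was 2.03 over genes occupied at TP36 or TP48, a choice that removes genes staying low. It was 2.25 with the replicates exchanged, 1.32 without chromosome 13 and -1.15 over all tRNA genes. From the bin of 1 to 2 over genes above the TP0 cutoff it was 1.96, an alternative chosen after seeing the data, like the others on the TP0 level. TP60 against TP48 gave 1 locus centred on all loci, and TP60 against TP36 0 to 1 without 1 library. The centring values follow from subtracting 1 number per library, and the cause of the other changes was not tested.

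Replicate numbers were not used as pairs in the main fit. Deviations of TP0 and TP60 correlated at 0.04 over all loci and those of other time points from -0.40 to 0.48. Over occupied loci the deviations of TP0 and TP36 correlated at 0.53. These values do not settle whether the replicate numbers mark a batch. The replicate block gave 240 higher loci and 8 Rn5S copies.

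Changes of named loci that turned negative were, centred on all loci and occupied-centred, n-Tl15 (-1.05 and -0.75), n-Th5 (-1.28 and -0.97), n-Tg26 (-1.46 and -1.15), n-Tl16 (-1.43 and -1.12), n-Tn7 (-1.43 and -1.12), B4A_SINE_B4- 6 128710011 (-1.12 and -0.82), B4A_SINE_B4+ (-1.40 and -1.10), MIR_SINE_MIR- (-0.69 and -0.39), B3_SINE_B2+ 10 62866100 (-0.54 and -0.23), Rn5S_like 8 126106747 (-0.48 and -0.18), Rn4.5s 6 128753032 (-0.73 and -0.42), Rnu6atac (-1.02 and -0.71), Rmrp (-1.12 and -0.82), Rny3 (-1.45 and -1.14), Rny1 (-0.60 and -0.30), Rnu6 9 62981090 (-1.39 and -1.09), Rn7sk (-1.33 and -1.02), Rnu6 10 79448251 (-1.78 and -1.48), Rnu6 12 53704775 (-1.53 and -1.23), Rnu6 12 53705477 (-1.12 and -0.82), Rn7sl 12 70260298 (-1.40 and -1.09), Rn7sl 12 70462167 (-0.97 and -0.66), Rpph1 (-0.80 and -0.49), Vaultrc5 (-0.94 and -0.64), Bc1 (-1.32 and -1.01), B4A_SINE_B4- 6 128748852 (-0.90 and -0.59) and Rnu6 10 79371940 (-0.77 and -0.47).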
